A study of Mus musculus with 13 samples.

Results

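RNA-Seq data of sorted brain myeloid cells were examined for 8 genes used as marks of monocytes and neutrophils: S100a8, S100a9, Ngp, Camp and Retnlg for neutrophils, and Ly6c2, Ccr2 and Plac8 for monocytes. The genes were taken from a fixed set of symbols, and each symbol matched 1 Ensembl identifier among the 52636 listed for every mouse. Cells came from the cortex and hippocampus of 13 PS2APP mice aged 14 to 15 months. All of the mice carried transgenes for mutant human presenilin 2 (PS2 N141I) and amyloid precursor protein (APP K670N/M671L), and develop β-amyloid plaques. The 7 PS2APP;Trem2wt mice (5 females and 2 males) had normal Trem2, and the 6 PS2APP;Trem2ko mice (5 females and 1 male) were homozygous for a Trem2 null allele. No mouse without the PS2APP transgenes was part of this comparison. The null allele is carried in every cell, so blood cells lack Trem2 as microglia do. Each mouse gave 1 library of cells sorted as positive for CD11b and CD45 and negative for the proteins Ly6g and Ccr2, a gate meant to leave out neutrophils and monocytes. In such bulk samples, fewer cells of a type and less RNA per cell cannot be told apart.

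Neutrophils are short-lived blood cells that fill their granules with antimicrobial proteins while they mature in the bone marrow. Granule proteins are transcribed at set stages of that maturation, and their mRNA falls away in the mature cell, while calprotectin mRNA persists. Monocytes leave the bone marrow with the help of the chemokine receptor Ccr2 and can become macrophages in tissue, whereas microglia arise in the embryo and renew within the brain.

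Total counts per mouse were between 26120961 and 120569609. A count of 3, taken as the limit of detection, corresponded to between 0.0249 and 0.115 CPM (counts scaled to the library total). Trem2 had an nRPKM, a length-normalized and size-factor-adjusted read count, of 818 to 1244 in PS2APP;Trem2wt mice and 0.393 to 2.29 in PS2APP;Trem2ko mice. P2ry12 and Tmem119, which set microglia apart from blood monocytes, had nRPKM of at least 1608 and 1163 in every mouse. The mRNA of Ly6g, whose protein was gated out, had at most 23 counts in a mouse and was at 0 in 7 of them. PS2APP;Trem2wt mouse 2, a male with the smallest library, held the highest levels of the granule protein and calprotectin genes. PS2APP;Trem2ko mouse 6, a female, held the lowest. Several of the results that rest on either mouse are given with and without it.

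The 4 granule protein and calprotectin genes moved together between mice, and are called granule genes below for short. They are shown first by the sequence before their start, since members that move together can be compared at the level of the promoter. S100a8 (chromosome 3, 90668978 to 90670035, plus strand) and S100a9 (chromosome 3, 90692632 to 90695721, minus strand) lie 22.6 kb apart on GRCm38 and encode the subunits of calprotectin. Camp (chromosome 9, 109847379 to 109849617, minus strand), which encodes the antimicrobial peptide CRAMP, and Ngp (chromosome 9, 110419747 to 110423012, plus strand), which encodes neutrophilic granule protein, lie 570.1 kb apart. No annotated gene overlaps any of the 8. The upstream bases are from RefSeq on GRCm38.p6, written 5′ to 3′ on the gene's strand and cut off where a transcript of either annotation begins. They cover chr3:90668821-90668977 for S100a8, chr3:90695722-90695971 for S100a9, chr9:110419558-110419746 for Ngp and chr9:109849618-109849706 for Camp. Capitals mark the letters TTGCNNAA, which C/EBP factors of the granulocyte lineage can bind, and GAGGAAG, which the myeloid factor PU.1 can bind, on either strand.
S100a8: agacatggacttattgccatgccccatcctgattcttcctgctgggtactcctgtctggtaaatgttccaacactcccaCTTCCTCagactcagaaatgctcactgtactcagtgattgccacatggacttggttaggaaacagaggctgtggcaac
S100a9: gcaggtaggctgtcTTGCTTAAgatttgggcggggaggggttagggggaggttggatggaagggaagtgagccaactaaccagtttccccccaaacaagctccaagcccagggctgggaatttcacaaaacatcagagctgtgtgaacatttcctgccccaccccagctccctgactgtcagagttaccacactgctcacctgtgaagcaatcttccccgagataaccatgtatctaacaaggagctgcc
Ngp: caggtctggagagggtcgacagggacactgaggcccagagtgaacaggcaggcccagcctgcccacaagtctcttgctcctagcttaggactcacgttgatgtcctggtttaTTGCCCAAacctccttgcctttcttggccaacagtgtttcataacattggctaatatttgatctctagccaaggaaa
Camp: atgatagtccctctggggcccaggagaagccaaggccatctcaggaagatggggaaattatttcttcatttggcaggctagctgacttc

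In the full 250 bases before the RefSeq start, TTGCNNAA occurred 1 time for S100a9 and 2 times for Ngp, and not for S100a8 or Camp. The second match for Ngp, like the end of its window, lies inside the transcript of the other annotation and is not printed. GAGGAAG occurred 1 time for S100a8 and for none of the other 3. Over all 32851 windows of this length, 9.56% held TTGCNNAA and 10.6% held GAGGAAG on either strand, and neither was common to the 4 genes. A match is a description of the letters and not of binding.

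The calprotectin genes were present at low level in every PS2APP;Trem2wt mouse. The nRPKM of S100a8, a calcium-binding alarmin subunit, was 1.56 at the lowest, 9.93 at the median and 54.4 at the highest in PS2APP;Trem2wt mice, and 0.0322, 6.52 and 7.60 in PS2APP;Trem2ko mice. The means were 15.6 ± 18.4 (SD, n = 7) and 5.08 ± 3.11 (SD, n = 6). The genotypes overlapped, with 5 of the 6 PS2APP;Trem2ko mice inside the PS2APP;Trem2wt range and mouse 6 below it. For S100a9, the partner subunit, the lowest, median and highest nRPKM were 3.96, 12.8 and 62.7 in PS2APP;Trem2wt mice and 0.0899, 7.54 and 9.66 in PS2APP;Trem2ko mice. Its means were 19.0 ± 20.8 (SD, n = 7) and 6.22 ± 3.93 (SD, n = 6), and 4 of the 6 PS2APP;Trem2ko mice lay inside the PS2APP;Trem2wt range.

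The genes of specific granule proteins had the same pattern of high and low mice. Ngp was the most abundant of the 8 genes per unit length. Its nRPKM was 6.10 at the lowest, 20.7 at the median and 96.5 at the highest in PS2APP;Trem2wt mice, against 0, 12.8 and 20.9 in PS2APP;Trem2ko mice, where the 0 was mouse 6. Camp had 1.52, 3.57 and 31.8 in PS2APP;Trem2wt mice and 0.0206, 3.45 and 4.78 in PS2APP;Trem2ko mice. For both genes 4 of the 6 PS2APP;Trem2ko mice lay inside the PS2APP;Trem2wt range. Within a mouse, the nRPKM fell in the order Ngp, S100a9, S100a8, Camp in 11 of 13 mice. The exceptions were PS2APP;Trem2ko mouse 2, where S100a8 (6.39) and S100a9 (6.35) were nearly equal, and PS2APP;Trem2ko mouse 6.

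PS2APP;Trem2ko mouse 6 stood apart from all others for these genes. Its library held 1 count of S100a8, 3 of S100a9, 1 of Camp and 0 of Ngp in 43673813 counts, and a count of 0 allows up to 0.0687 CPM. The same library held 579 counts of Ccr2 and 95 of Plac8, so these monocyte genes were not at the limit of detection with the granule genes. Ly6c2, with 5 counts, was close to that limit of 3. At the other end, PS2APP;Trem2wt mouse 2 held 1019 counts of S100a8, 1262 of S100a9, 4546 of Ngp and 929 of Camp. The summed counts of the 5 neutrophil genes were 297 CPM in this mouse (95% exact Poisson interval 290 to 304, counting error only) and 0.114 CPM in PS2APP;Trem2ko mouse 6 (0.0372 to 0.267).

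Retnlg, a resistin-like gene of mature neutrophils on chromosome 16, was at the limit of detection. It had 0 counts in 3 of the 7 PS2APP;Trem2wt and 5 of the 6 PS2APP;Trem2ko mice, and at most 3 counts in any mouse. It did not pass the expression filter and was not tested between genotypes.

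**Figure D1:**
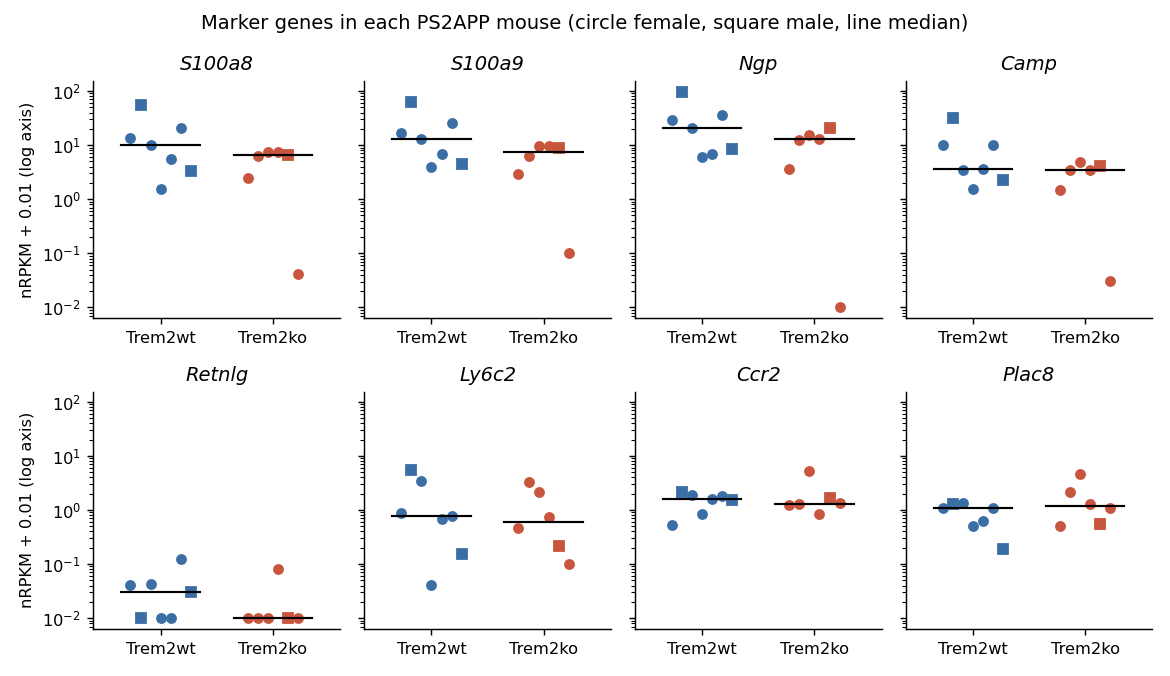
nRPKM plus 0.01 on a log axis for each of the 8 genes in 7 PS2APP;Trem2wt and 6 PS2APP;Trem2ko mice, with circles for females, squares for males and a line at the group median. The genotypes overlap in every panel. In each panel of a granule gene, the square at the top is PS2APP;Trem2wt mouse 2 and the lowest point is PS2APP;Trem2ko mouse 6.

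The monocyte genes had a lower median nRPKM than the 4 granule genes in both genotypes. Ly6c2 (chromosome 15, 75108158 to 75111970), which encodes the surface antigen of inflammatory monocytes, had an nRPKM of 0.0301 at the lowest, 0.776 at the median and 5.38 at the highest in PS2APP;Trem2wt mice and 0.0901, 0.580 and 3.25 in PS2APP;Trem2ko mice. All 6 PS2APP;Trem2ko mice were inside the PS2APP;Trem2wt range. Of the 50-base words in its transcripts, 14.5% also occur in other genes, most of all Ly6c1, so part of its count is uncertain.

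Ccr2 (chromosome 9, 124101950 to 124113557), the receptor for Ccl2 whose protein was gated out, was detected in every mouse with at least 186 counts. Its nRPKM was 0.523, 1.61 and 2.10 at the lowest, median and highest in PS2APP;Trem2wt mice and 0.831, 1.30 and 5.13 in PS2APP;Trem2ko mice. Only PS2APP;Trem2ko mouse 3 lay outside the PS2APP;Trem2wt range, and the next highest PS2APP;Trem2ko mouse had 1.65. Of its 50-base words, 1.91% also occur in other genes.

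Plac8 (chromosome 5, 100553725 to 100572245), a small cysteine-rich protein gene expressed in monocytes and other blood leukocytes, had 0.180, 1.06 and 1.32 nRPKM in PS2APP;Trem2wt mice and 0.499, 1.18 and 4.65 in PS2APP;Trem2ko mice. PS2APP;Trem2ko mice 2 and 3 were above the PS2APP;Trem2wt range, with 2.09 and 4.65. The same mouse 3 was therefore highest for both Ccr2 and Plac8, and second highest of its group for Ly6c2 with 2.14.

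Of the 7 genes tested 0 differed between genotypes by the quasi-likelihood test of edgeR (adjusted p of at most 0.05), while 2.04% of all 17086 tested genes did. With p unadjusted, 2 of the 7 were at or under 0.05, S100a9 and Camp, beside 14.8% of all genes. The number called was also 0 in voom+limma, in DESeq2 and in each of the other alternatives. With the median log2 fold change of all tested genes at 0.0039, the 7 genes had a median of -1.40, with 5 below 0 and 2 above.

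The point estimates of the granule genes were 2.64-fold to 3.06-fold lower in PS2APP;Trem2ko mice, with wide intervals. S100a8 had a log2 fold change of -1.60 (SE 0.77, 95% interval -3.25 to 0.04, adjusted p = 0.35 from edgeR). S100a9 had -1.60 (SE 0.72, interval -3.12 to -0.07, adjusted p = 0.309). Camp had -1.61 (SE 0.75, interval -3.21 to -0.02, adjusted p = 0.331) and Ngp -1.40 (SE 0.79, interval -3.08 to 0.28, adjusted p = 0.437). These 4 estimates are not separate pieces of evidence, since the genes moved together between mice. They depended on PS2APP;Trem2wt mouse 2: without it they were -0.84 for S100a8, -0.91 for S100a9, -0.82 for Camp and -0.70 for Ngp, and edgeR gave adjusted p-values from 0.566 to 0.717. In females only they were between -1.20 and -1.10. Without PS2APP;Trem2ko mouse 6, S100a8 and S100a9 each had -1.35.

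The monocyte genes did not share a direction. Plac8 had a log2 fold change of 0.97 (SE 0.52, 95% interval -0.15 to 2.08, adjusted p = 0.414 from edgeR) and Ccr2 of 0.38 (SE 0.39, interval -0.46 to 1.22, adjusted p = 0.71). Ly6c2 had -0.50 (SE 0.90, interval -2.43 to 1.42, adjusted p = 0.854). Without PS2APP;Trem2ko mouse 3 the values were 0.35 for Plac8 and -0.20 for Ccr2, and without PS2APP;Trem2wt mouse 2 the value of Ly6c2 was 0.17, so the sign of Ccr2 and of Ly6c2 each rested on 1 mouse.

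**Figure D2:**
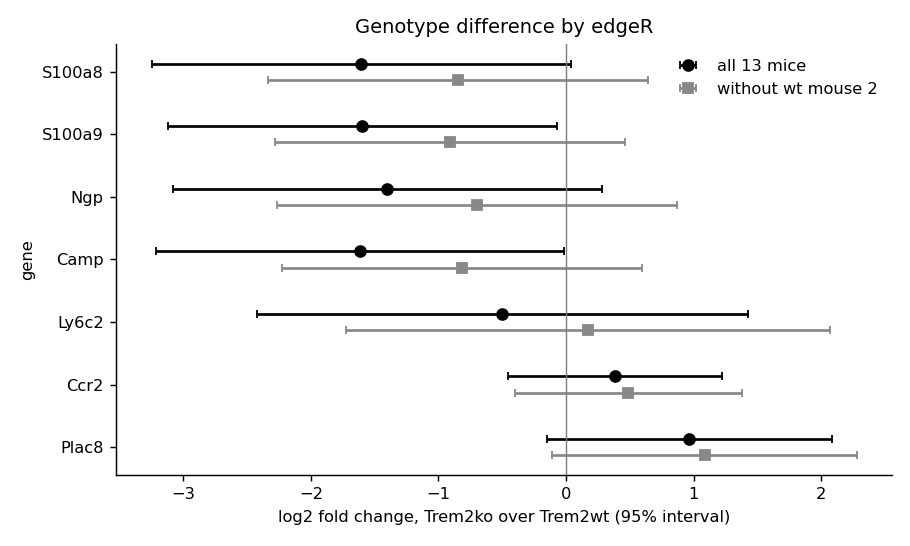
Log2 fold change of PS2APP;Trem2ko over PS2APP;Trem2wt mice for the 7 tested genes, with 95% intervals from edgeR, for all 13 mice (black circles) and without PS2APP;Trem2wt mouse 2 (grey squares). The granule genes move from between -1.61 and -1.40 to between -0.91 and -0.70 when that mouse is left out.

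The spread between mice of the same genotype was large for these genes. From the dispersion fitted by edgeR, the coefficient of variation between mice was 1.08 for Ly6c2, 1.06 for Ngp, 0.95 for S100a8, 0.921 for Camp and 0.871 for S100a9, against a median of 0.205 over all tested genes. Between 1.11% and 3.32% of tested genes had a dispersion at or above that of these 5. Plac8 (0.639) and Ccr2 (0.487) were closer to other genes, with 8.78% and 16.0% of tested genes at or above them.

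Co-variation was then measured over the 13 mice on log2(CPM + 0.1), with library totals scaled by the TMM factors of edgeR for this CPM. The mean of each genotype was subtracted first, so that a difference between genotypes could not produce co-variation. S100a8, S100a9, Ngp and Camp rose and fell together. Their 6 pairs had Pearson r between 0.955 and 0.990 and Spearman rho between 0.940 and 0.989. All 6 passed a permutation test adjusted over the 28 pairs of the 8 genes, with a largest adjusted p of 4.67e-05 for r, and the unadjusted p was 1e-05, the smallest the permutations can give. The highest r was that of S100a8 with S100a9, which are neighbours in the genome, and Ngp with Camp had 0.960.

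These correlations did not rest on the extreme mice. With the 2 mice farthest from the median of the first gene left out, r was 0.913 to 0.993. Without PS2APP;Trem2ko mouse 6 it was 0.934 to 0.981, and without both that mouse and PS2APP;Trem2wt mouse 2 it was 0.888 to 0.968. Within the 7 PS2APP;Trem2wt mice r was 0.943 to 0.985, and within the 6 PS2APP;Trem2ko mice, where mouse 6 sets most of the range, 0.994 to 0.998.

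**Figure D3:**
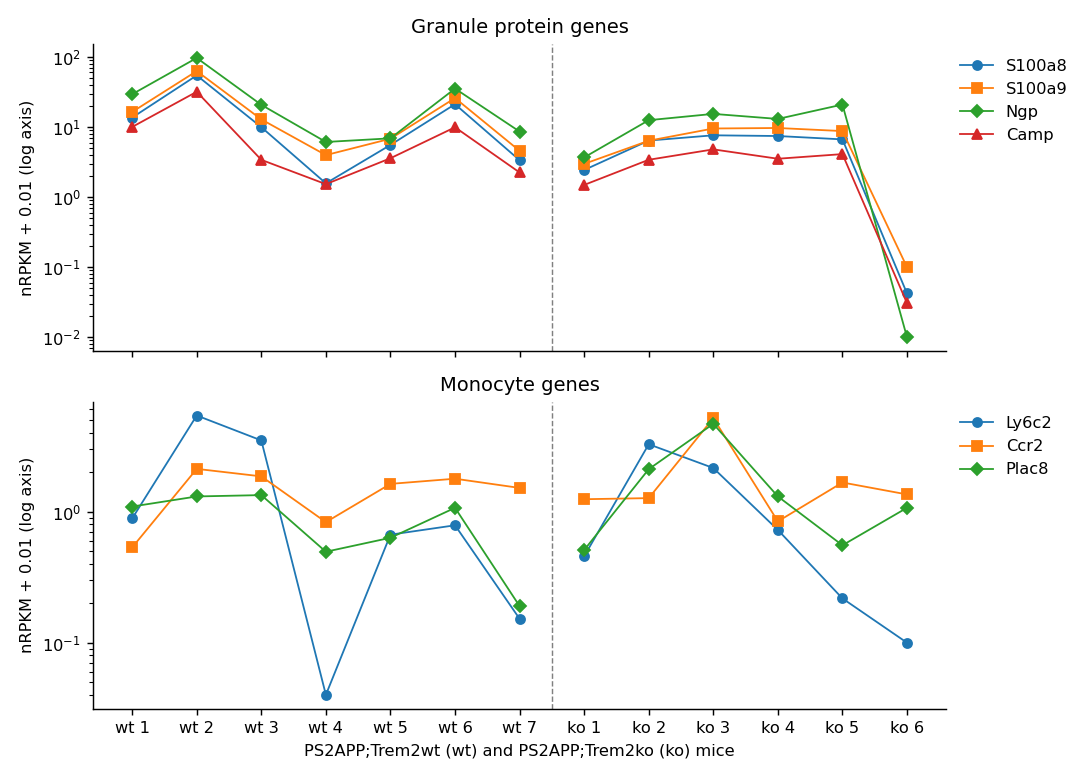
nRPKM plus 0.01 on a log axis in each mouse, with the 4 granule protein and calprotectin genes above and the 3 monocyte genes below. A dashed line lies between PS2APP;Trem2wt (wt) and PS2APP;Trem2ko (ko) mice. The 4 granule lines run nearly parallel from the highest mouse (wt 2) to the lowest (ko 6), while the highest Ccr2 and Plac8 are in ko 3.

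The ratios between granule genes varied less than their levels. Over the 12 mice other than PS2APP;Trem2ko mouse 6, the ratio of S100a9 to S100a8 nRPKM was 0.994 to 2.54 with a coefficient of variation of 29.0%, while the level of S100a9 had one of 117%. The highest ratio was that of PS2APP;Trem2wt mouse 4, with 29 counts of S100a8, and without this mouse the ratio was 0.994 to 1.36 with a coefficient of variation of 7.97%. The ratio of Ngp to S100a9 was 1.01 to 2.39, with a coefficient of variation of 22.8% against 113% for the level of Ngp. For Camp to Ngp these were 31.4% and 127%. The spread of the levels rested in part on PS2APP;Trem2wt mouse 2. Without it the levels of S100a9, Ngp and Camp had coefficients of variation of 67.8%, 64.0% and 67.7%, and the ratios had 29.6%, 23.8% and 33.0%.

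Among the monocyte genes 1 of 3 pairs passed. Ly6c2 and Plac8 had r = 0.752 (rho = 0.857, permutation test, adjusted p = 0.0113) and r = 0.791 without the 2 farthest mice. Ccr2 had r = 0.399 with Ly6c2 and 0.392 with Plac8 (adjusted p = 0.321 for both in the permutation test). Of the 12 pairs of a granule gene with a monocyte gene 4 passed, each of them with Ly6c2, with r = 0.753 for S100a8, 0.696 for S100a9, 0.680 for Camp and 0.617 for Ngp. Without the 2 farthest mice these fell to 0.618, 0.561, 0.539 and 0.553. Ccr2 with the granule genes had r of 0.208 to 0.269. Whether the r of the Ly6c2 pairs differs from that of the Ccr2 pairs was not tested. No pair with Retnlg passed, where its counts were at the limit of detection.

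**Figure D4:**
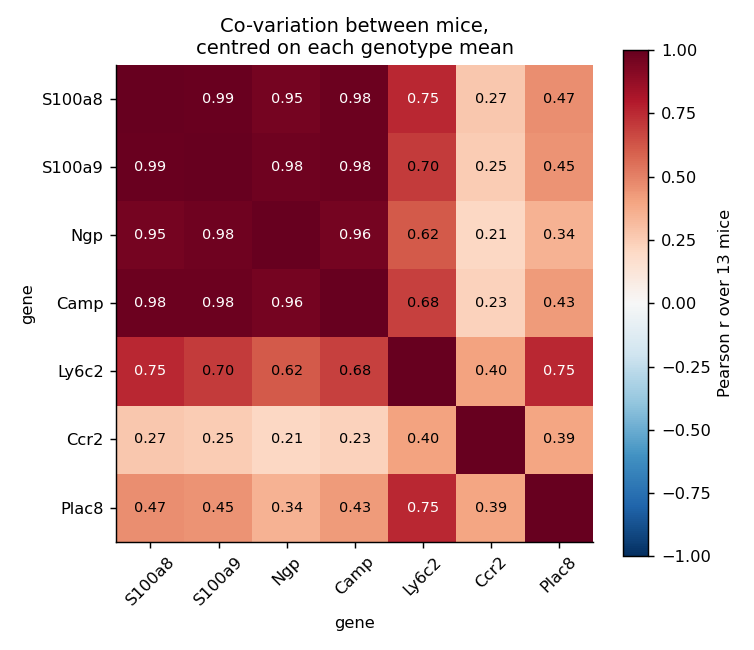
Pearson r over 13 mice for each pair of the 7 genes above the limit of detection, on log2(CPM + 0.1) centred on each genotype mean, coloured from -1 to 1. The block of S100a8, S100a9, Ngp and Camp is at 0.955 or higher, Ly6c2 has 0.617 to 0.753 with it and Ccr2 0.208 to 0.269.

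Other genes most like the summed neutrophil members were then ranked over the 17079 tested genes that are no members, as a description over 13 mice. Ltf, the gene of the granule protein lactoferrin, came first with r = 0.993, and Lcn2, that of the granule protein lipocalin 2, second with r = 0.954. Fcnb, a ficolin gene of granulocyte precursors, had r = 0.871. The others among the 10 highest were Gm11110, Dusp2, Vcan, Aggf1, Ube2cbp, D330023K18Rik and Gm42585, with r of 0.859 to 0.892, and 21 genes (0.123%) reached 0.8, against 85 without PS2APP;Trem2ko mouse 6. Without PS2APP;Trem2ko mouse 6, Ltf (0.973), Lcn2 (0.966) and Fcnb (0.918) were the 3 of these 10 that stayed among the 10 highest, and Gm42585 had 0.345.

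The summed monocyte members are mostly Ccr2, with 2078 of 2580 counts in PS2APP;Trem2ko mouse 3 and 548 of 798 in PS2APP;Trem2wt mouse 2. Plbd1, a phospholipase-like gene, was the highest for this sum, with r = 0.911. It was followed by Ahr, Cldn1, Slfn1, Mcub, Atp6v1g2, S100a6, Emilin2, Olfr99 and Noxred1, with r of 0.840 to 0.881, and 22 genes (0.129%) reached 0.8, against 47 without PS2APP;Trem2ko mouse 6. Without PS2APP;Trem2ko mouse 3, which had the highest Ccr2 and Plac8, r was 0.861 for Plbd1 and 0.641 for Emilin2.

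Of 24 other neutrophil and granulocyte precursor genes 12 passed the expression filter, none was called, and their median log2 fold change was -0.55, with 9 below 0 and 3 above. Ltf had 1.78 to 19.0 nRPKM in PS2APP;Trem2wt mice and 0 to 5.95 in PS2APP;Trem2ko mice, the 0 again being mouse 6. The 12 that did not pass the filter had at most 60 counts in a mouse. They included Mpo and Elane, of early precursors (at most 10 and 23 counts), Cxcr2, the chemokine receptor of mature neutrophils (at most 26), and Stfa2, which was at 0 in every mouse. Other genes of the list reached more, with up to 143 counts of Fcnb, 176 of Mcemp1, 238 of Mmp9 and 299 of Cd177, the last 3 named after their values were seen. Csf3r, the receptor for granulocyte colony-stimulating factor, was the most abundant of the list with 88.1 to 165 nRPKM and had r = 0.003 with the neutrophil members. The 12 tested genes had r of -0.342 to 0.993 with the neutrophil members, above 0 for 10 of them. The 11 other than Csf3r had a median r of 0.655. The sum of this list is mostly Csf3r, and its r with the neutrophil members was 0.182 (-0.173 without PS2APP;Trem2ko mouse 6). The mean of logs, used for the list and for the members alike, gave 0.868.

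Of 20 other monocyte genes all were tested and none was called, with 11 log2 fold changes above 0, 9 below and a median of 0.11. The largest was that of F10, named after its values were seen (log2 fold change 3.35, adjusted p = 0.0677 from edgeR). F10 had at most 9 counts in a PS2APP;Trem2wt mouse. F13a1, a coagulation factor gene, was the most abundant. The summed list had r = 0.873 with the summed monocyte members, which are mostly Ccr2, and 0.574 with the neutrophil members. The mean of logs gave 0.945 and 0.700. Chil3 (r = 0.849) and Hp (0.718), named after their values were seen, moved with the neutrophil members.

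Genes of other cells that blood or tissue could bring into the sort were examined in the same way. Of 18 lymphocyte genes 9 were tested and none was called, with 8 log2 fold changes above 0, 1 below and a median of 0.61. The list summed to 678 to 936 CPM in PS2APP;Trem2wt mice and 694 to 949 in PS2APP;Trem2ko mice, mostly of Ighm. Its sum had r = 0.596 with the neutrophil members, which was 0.274 without PS2APP;Trem2ko mouse 6, and r = 0.476 with the monocyte members. The mean of logs, which weights each gene equally, gave 0.360 and 0.758.

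Of 11 red cell and platelet genes 7 were tested and none was called. Their sum was 15.6 to 26.7 CPM in PS2APP;Trem2wt mice and 11.8 to 28.5 in PS2APP;Trem2ko mice, led by Gp9. It had r = -0.208 with the neutrophil members (-0.019 without PS2APP;Trem2ko mouse 6) and -0.308 with the monocyte members (0.013 without PS2APP;Trem2ko mouse 3). The 7 genes had r of -0.406 to 0.408 with the neutrophil members, above 0 for 3 of them. With the monocyte members Gp9 had r = -0.732. The other 6 genes had -0.047 to 0.412 with the monocyte members, with a median of 0.386. The mean of logs gave -0.150 with the neutrophil and 0.366 with the monocyte members.

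Border macrophage genes (10 tested) had no call. Their sum, mostly of Stab1, had r of -0.352 with the neutrophil and -0.140 with the monocyte members, but these signs were those of Stab1 alone. The other 9 genes had r of 0.018 to 0.687 with the neutrophil and 0.291 to 0.649 with the monocyte members, and the mean of logs gave 0.419 and 0.690.

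Dendritic cell genes (7 tested, led by Cd209a) and neural genes (10 tested, led by Mbp) had no call. The dendritic sum had r of 0.462 with the neutrophil members (0.317 without PS2APP;Trem2ko mouse 6) and 0.725 with the monocyte members (0.492 without PS2APP;Trem2ko mouse 3). The neural sum had 0.156 and 0.599, and without PS2APP;Trem2ko mouse 6 it had 0.614 with the neutrophil members. Choroid plexus genes were near 0, with a sum of at most 1.73 CPM. Of 9 endothelial and mural genes 8 were tested, with 4 log2 fold changes above 0, 4 below and a median of 0.04. Flt1, a VEGF receptor, was the 1 called, lower in PS2APP;Trem2ko mice (log2 fold change -2.20, adjusted p = 0.000336 from edgeR). The sum of that list had r of 0.172 with the neutrophil members (0.478 without PS2APP;Trem2ko mouse 6) and 0.465 with the monocyte members. Whether cells of any of these types carried the members' mRNA into the sort was not tested.

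Among receptors of the S100a8/S100a9 and Camp products, ligands of Ccr2 and chemoattractants, 10 of 15 genes were tested. Csf1, a growth factor of macrophages, was the 1 called, lower in PS2APP;Trem2ko mice (log2 fold change -1.07, adjusted p = 0.0298 from edgeR). This call was lost in 6 of the 13 fits that left out a mouse (PS2APP;Trem2wt mice 2 and 5 and PS2APP;Trem2ko mice 1, 4, 5 and 6), with adjusted p-values of 0.0524 to 0.0675, and in females only (0.11). P2rx7 was the most abundant by counts, and Csf3, the neutrophil growth factor, was at 0 in every mouse. Of 8 myeloid transcription factors 6 were tested and none was called, with Irf8 the most abundant. Cebpe and Gfi1, factors of the granulocyte precursor named after their values were seen, had at most 17 and 11 counts. Among 9 microglia genes Cx3cr1, the fractalkine receptor, was lower in PS2APP;Trem2ko mice (log2 fold change -0.49, adjusted p = 0.0067 from edgeR), and the list's sum had r of -0.285 with the neutrophil members (-0.471 without PS2APP;Trem2ko mouse 6) and -0.242 with the monocyte members (-0.105 without PS2APP;Trem2ko mouse 3 and -0.657 with the mean of logs).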

How the data were processed

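RNA-Seq libraries of sorted myeloid cells from 13 mice were used. The authors aligned single-end reads to GRCm38 with GSNAP, and deposited for each mouse the count of reads per gene and an nRPKM, an RPKM adjusted by a size factor. Strand use in counting is not given in the sources used here. No column of other samples was present. Members and lists were chosen with earlier results of these data known.

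Identifiers were named through GENCODE M21, which gave 52403 of 52636 a symbol. Counts were tested with edgeR 4.0.16 in R 4.3.3 (filterByExpr, TMM, glmQLFit and glmQLFTest, Benjamini-Hochberg over 17086 genes, no covariate). Each mouse is 1 replicate. The deposited nRPKM were used for levels. Correlations used log2(CPM + 0.1) with TMM-scaled library sizes and 100000 permutations (exact within a genotype), in numpy 2.4.6 and scipy 1.17.1. Summed levels in CPM used the plain library total. Two-sided tests were used throughout. Reads shared between genes were estimated from 50-base words of transcripts on either strand.

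Named genes are the members, the 10 most correlated with each summed group, called genes of each list (up to 3), each list's most abundant gene and any gene at 0 throughout, Trem2, P2ry12, Tmem119, Cx3cr1 and Ly6g. Some genes this rule names are not reported here. Mpo, Elane, Cxcr2 and genes so marked in the text were named after their values were seen. Alternatives were voom+limma (limma 3.58.1, the tool of the authors), DESeq2 1.42.0, RLE scaling, no filter, 10 counts in 6 mice, a sex term, the 10 females alone, log2(nRPKM + 0.1) or log2(nRPKM + 1) in limma, and leaving out each mouse. Leaving out chosen mice from the correlations was added after the data were seen. Tested on simulated data with 186 genes changed 4-fold among 16706, edgeR recovered 89.2% and called 3 others. The changed genes were drawn at random from genes with a median coefficient of variation of 0.205. The tested members had 0.487 to 1.08, so this share does not give the recovery for them.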

Additional observations from a re-analysis of the deposited data

Results flagged for a closer look

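In 9 of 20 groups (a gene or a sum of members, in 1 genotype), 1 mouse lay far from the others (Dixon's criterion for the gap over the range). Chance flags about 1 in 20 groups of normally distributed values, and whether these levels are so distributed was not tested. The groups share mice, the genes move together and the sums are of the same genes, so the 9 are not separate.

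PS2APP;Trem2wt mouse 2 was highest for S100a8 (nRPKM 54.4, next mouse 21.1), S100a9 (62.7, next 25.8), Ngp (96.5, next 35.3) and Camp (31.8, next 9.999), and for the summed neutrophil members (297 CPM, next 105). It is a male with the smallest library, and the other male of its group, mouse 7, had an S100a8 nRPKM of 3.34.

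PS2APP;Trem2ko mouse 3 was highest for Ccr2 (5.13, next 1.65) and for the summed monocyte members, which are mostly Ccr2 (62.1 CPM, next 20.8). Retnlg was highest in PS2APP;Trem2wt mouse 6 (0.115) and PS2APP;Trem2ko mouse 4 (0.0695), each of which is 3 counts.

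On the linear scale PS2APP;Trem2ko mouse 6 met the criterion for no gene, although it held 0 to 3 counts of each granule gene.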

How the results depend on the processing

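No paired analysis was possible because the labels carry no number that ties a PS2APP;Trem2wt to a PS2APP;Trem2ko mouse, although mice were generally handled in pairs. The number of members called was 0 in all 23 settings. Genes called were 862 in DESeq2 against 348, and 244 to 357 with a mouse left out. In the lists of other genes 2 to 4 were called over the settings, against 3 in the main fit. Of 154 recomputed log2 fold changes of members 3 changed sign: Ly6c2 in females only (0.16) and without PS2APP;Trem2wt mouse 2 (0.17), and Ccr2 without PS2APP;Trem2ko mouse 3 (-0.20). With a mouse left out Ly6c2 ranged from -1.19 to 0.17 and Ccr2 from -0.20 to 0.54. The cause was not tested.

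The median r of the granule pairs (0.979, jackknife SE 0.017) was 0.996 in PS2APP;Trem2ko mice only, 0.956 as Spearman's rho, 0.933 without both PS2APP;Trem2ko mouse 6 and PS2APP;Trem2wt mouse 2, and 0.962 to 0.983 with a mouse left out. That of the mixed pairs (0.439) was 0.216 without centring and 0.731 in PS2APP;Trem2wt mice only. The mean of logs, in place of the summed level of both the list and the members, weights each gene equally. The r with the neutrophil members was then 0.868 for other neutrophil, 0.419 for border macrophage and 0.217 for dendritic genes. With the monocyte members it was 0.873 for other neutrophil, 0.758 for lymphocyte, 0.366 for red cell and platelet, 0.690 for border macrophage, 0.434 for choroid, -0.657 for microglia and 0.80 for ligand and receptor genes. The other 38 of 48 list values moved by less than their jackknife SE.

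With 13 mice and the spread given above, a 2-fold lower level in PS2APP;Trem2ko mice lies inside the interval of each granule gene, so its absence was not shown, while a 2-fold higher level lies outside all 4.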
